A study of Mus musculus with 6 samples.

Results

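The genes described here carry out or control the burning of fatty acids in mitochondria and peroxisomes. They are 36 named mouse genes, picked by symbol with earlier results of these data known, out of 25528 genes in each count table. All 36 were found, and 35 had enough reads to be tested; Ppara did not. The study measured polyadenylated RNA of organoids, clusters of epithelium kept in 3D culture, derived from the mouse gastric corpus, where acid is made. In 3 libraries the organoids overexpressed Erbb2, and in 3 they had been transduced with an empty vector. The sources used here do not state the mouse strain, the promoter of the construct, the time in culture or the number of lines or animals. Since separate cultures are not stated, p-values measure only how far these libraries vary, which may be technical.

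Fatty acids are first joined to coenzyme A by acyl-CoA synthetases and carried into mitochondria as carnitine esters. There a repeating cycle of dehydrogenation, hydration, further dehydrogenation and cleavage removes acetyl units, and the electrons pass to the respiratory chain. Peroxisomes shorten very long and branched chains by a parallel route and break down the hydrogen peroxide it makes. The nuclear receptors PPAR-alpha, PPAR-delta and PPAR-gamma sense fatty acids and switch on many of these genes, and the coactivator PGC-1-alpha strengthens their action. In the stomach, acid-secreting parietal cells are the best known for their dense mitochondria.

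Total counts ran from 18735853 to 22767455 per library. The genes of this group held between 0.260% and 0.283% of them. Erbb2 itself stood at 125, 164 and 128 CPM (read counts scaled to library size, per 1e+06 counts) in control replicates 1, 2 and 3 and at 342, 349 and 285 CPM in the overexpressing ones, so the libraries went with their labels. Both libraries of replicate 3 lay apart from the other 4 on the leading principal component (57.8% of the variance), and mitochondrially encoded transcripts held 6.33% of counts in Erbb2 replicate 3 against 8.01% to 11.1% elsewhere. Epithelial markers were abundant, with 8 genes summing to 6950 to 8570 CPM in controls and 8290 to 8600 CPM in overexpressing organoids. Of those 8, Tff2 was higher and Sox2 lower with the replicate block. Of the 8 parietal markers Atp4b and Slc26a7 had 0 counts in each library, and 4 were tested.

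Each group had replicates numbered 1 to 3, and libraries of the same number deviated together. Therefore 2 fits of edgeR's quasi-likelihood test are given, without and with the replicate number as a block. Adjusted p-values (Benjamini-Hochberg) run over all 12593 genes tested. Without the block 0 genes were called at an adjusted p below 0.05, which is 0% of those tested, while 419 genes, or 3.33%, had an unadjusted p below 0.05. Among the 35 tested genes of this group, 0 were called and 1, Pparg, had an unadjusted p below 0.05. Without the block DESeq2 and limma voom also called 0 of them. With the block 389 genes were called, or 3.09% of those tested, and 1 of the 35 was among them. All fold changes that follow use the block, and "rose" or "fell" refers to calls made with it.

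The single call was a rise of Pparg, which encodes PPAR-gamma, the receptor best known for its part in fat storage. It was made only in fits with the block. Of the 35 genes 1 rose and 0 fell, against 2.37% of all tested genes that rose and 0.723% that fell. The 1 call is thus near the share over all tested genes. The median log2 fold change was -0.026 over the 35 genes and -0.007 over all genes tested. Of them 3 differed by more than 0.25 on the log2 scale, or 8.57%, against 25.4% of all genes tested. Those were Pparg, Ppargc1a and Pdk4. The 34 that were not called had adjusted p-values between 0.187 for Hadh and 0.984 for Hsd17b4 (edgeR with the block).

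**Figure D1:**
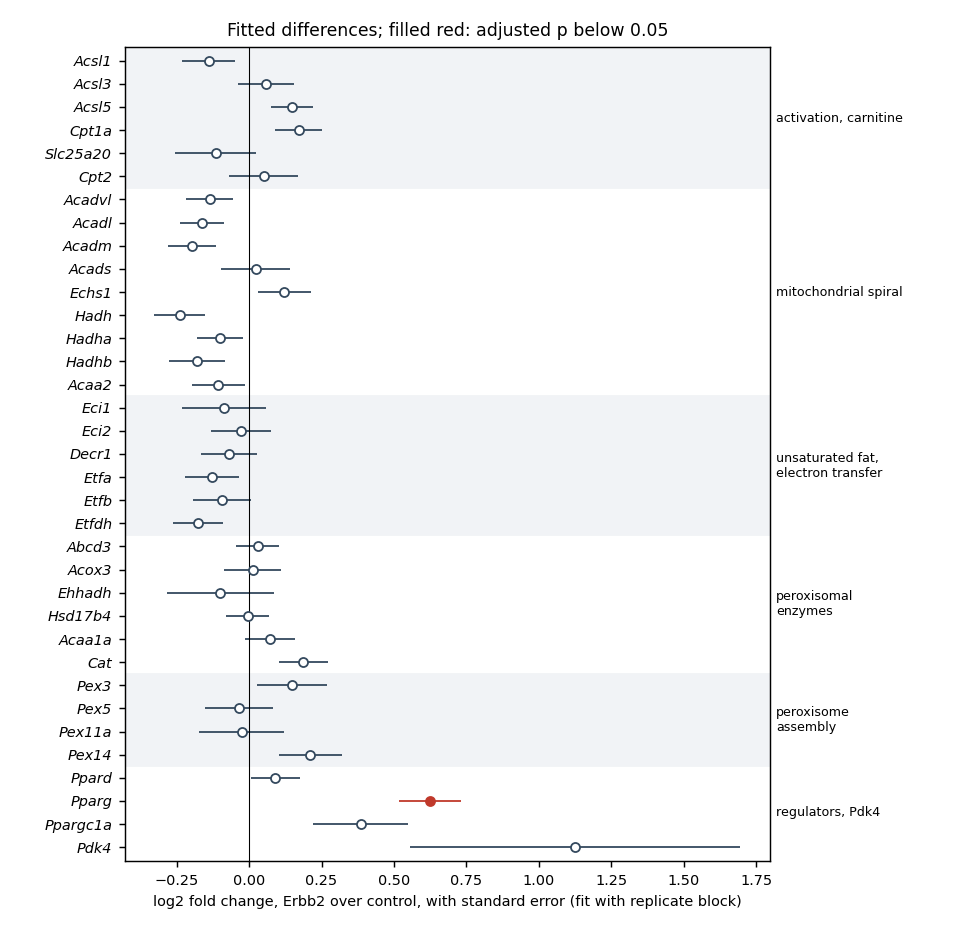
Fitted log2 fold change, Erbb2-overexpressing over control, on the horizontal axis for each of the 35 tested genes, with its standard error from the edgeR fit with the replicate block. Genes are listed by role, and Pparg, at 0.62, is the one filled point; outside the regulators and Pdk4 the values lie between -0.24 and 0.21.

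Pparg stood at 19.0, 24.7 and 26.0 CPM in control replicates 1, 2 and 3 and at 27.1, 36.2 and 44.7 CPM in the overexpressing ones. Each overexpressing library lay above every control, though Erbb2 replicate 1 passed control replicate 3 only narrowly. The mean went from 23.2 ± 3.74 to 36.0 ± 8.79 CPM (SD, n = 3), and Pparg rose 1.54-fold (log2 0.62, SE 0.11; edgeR with the block, adjusted p = 0.00906). Within pairs the log2 difference was 0.52, 0.55 and 0.78, higher in 3 of 3. In 10 fits with the block, which vary scaling, test and filter and leave out each pair in turn, the log2 fold change lay between 0.54 and 0.67 and the adjusted p between 0.00127 and 0.0479. In 14 fits without it the value lay between 0.45 and 0.80, and the adjusted p was 0.584 or higher.

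Pparg is read from several starts, and counts per gene add up the transcripts of all of them. RefSeq (GRCm38.p6, an earlier build than that of the counts) gives 3 starts on the plus strand of chromosome 6. The second lies 1205 bases and the third 60922 bases after the first; the last is that of the isoform known from fat cells. The 100 bases before each start are shown 5′ to 3′ with CG pairs in capitals, because the count cannot tell these starts apart while their sequences differ widely.
Pparg start 1, chr6:115361044-115361143: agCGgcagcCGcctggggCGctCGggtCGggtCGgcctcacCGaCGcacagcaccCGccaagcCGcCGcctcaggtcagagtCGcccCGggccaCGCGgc
Pparg start 2, chr6:115362249-115362348: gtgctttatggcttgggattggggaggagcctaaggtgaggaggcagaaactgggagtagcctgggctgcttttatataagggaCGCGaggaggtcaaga
Pparg start 3, chr6:115421966-115422065: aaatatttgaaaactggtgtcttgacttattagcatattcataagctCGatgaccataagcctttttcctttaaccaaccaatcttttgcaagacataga
The printed stretches hold 15, 2 and 1 CG pairs, and the 250 bases before each start hold 38, 12 and 2. The first start thus lies in CG-rich sequence and the third in CG-poor sequence. Which of them gave the additional reads was not measured.

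Markers of other cells were read beside this rise. Of 6 adipocyte markers 0 were tested, Adipoq, Plin1, Lep and Cfd had 0 counts in each library, and the list summed to at most 0.086 CPM. Of 6 immune markers the macrophage gene Adgre1 was at 0 in all libraries, and the list summed to 20.8 to 54.1 CPM in controls and 18.5 to 73.9 CPM in overexpressing organoids, nearly all of it Cd68. The 4 markers of gastric pit cells summed to 31.5 to 74.5 CPM in controls and 85.8 to 194 CPM in overexpressing organoids, mostly Tff1, with 0 of the 3 tested called. The 6 enterocyte markers summed to 92.2 to 213 and 156 to 227 CPM, nearly all of it Vil1, with Fabp1 and Alpi at 0. Of the 3 tested 1 rose, the scarce Cdx2. It was at 0.278, 0.282 and 2.37 CPM in controls and at 3.18, 2.43 and 5.16 CPM in overexpressing organoids. The 8 parietal markers summed to 161 to 275 CPM in controls and 232 to 363 CPM in overexpressing organoids, with 0 of the 4 tested called. Most of that sum was Kcnq1. Aqp4, a water channel, was at 4.36, 1.30 and 16.7 CPM in controls and at 79.2, 51.5 and 103 CPM in overexpressing organoids. Its groups did not overlap (log2 fold change 3.57, adjusted p = 0.174 in edgeR with the block). The other tested parietal markers did not follow it, with log2 fold changes of 0.05 for Atp4a, 0.14 for Kcnq1 and -0.25 for Gif. The 5 chief cell markers, Gif among them, summed to 69.5 to 139 CPM in controls and 61.1 to 117 CPM in overexpressing organoids. Of these 4 were tested and 0 called, with log2 fold changes of -0.36 for Pgc, -0.44 for Pga5, -0.25 for Gif and -0.06 for Bhlha15. Fibroblast markers summed to at most 1.42 and 1.7 CPM and endothelial markers to at most 5.89 and 14.3 CPM, with 0 called. The part of these cell types in the Pparg result was not tested. In bulk RNA a change in the number of cells of a type and a change of RNA per cell cannot be told apart.

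The other receptors were not called. Ppard, the gene of the widely expressed PPAR-delta, was at 110, 129 and 142 CPM in control replicates 1, 2 and 3 and at 127, 120 and 158 CPM in the overexpressing ones. The groups overlapped, and the log2 fold change was 0.09 (SE 0.09). Ppara, the receptor that drives fatty acid oxidation in liver, had 9, 9 and 5 counts in the controls and 8, 12 and 4 in the overexpressing libraries. It stayed below the filter on low counts. Fitted without that filter, its log2 fold change was 0.02 with the block, with an SE of 0.67 that leaves its size undetermined. Per length of transcript Ppard was the most abundant of these receptors in controls, at 38.7 ± 4.93 RPKM (CPM per kilobase of the principal transcript; SD, n = 3). Pparg stood at 13.1 ± 2.12 and Ppara at 0.111 ± 0.0438 RPKM. In overexpressing organoids the order was the same, with 41.2 ± 6.19, 20.4 ± 4.98 and 0.117 ± 0.0762 RPKM. The ranges of Ppard and Pparg did not overlap in either group.

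Ppargc1a encodes the coactivator PGC-1-alpha, a driver of mitochondrial gene expression. It was at 12.1, 9.69 and 12.05 CPM in control replicates 1, 2 and 3 and at 11.8, 15.2 and 17.7 CPM in the overexpressing ones. Pairs 2 and 3 went up and pair 1 stood nearly level, so the groups overlapped. The log2 fold change was 0.38 (SE 0.16, adjusted p = 0.256 in edgeR with the block, 0.161 to 0.729 over its alternatives). Pdk4, the kinase that turns off pyruvate dehydrogenase when fat is burned and a classic PPAR target, was scarce. It had 8, 5 and 14 counts in the controls and 17, 27 and 17 in the overexpressing libraries, or 0.371, 0.282 and 0.602 CPM against 0.741, 1.53 and 0.708 CPM. The groups did not overlap, but Erbb2 replicate 2 was far above the other overexpressing libraries. On the log2 scale the difference was 1.13 (SE 0.57, adjusted p = 0.349, and 0.143 to 0.871 over the 9 fits with the block that tested it). It passed the filter on low counts mostly through the overexpressing libraries.

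**Figure D2:**
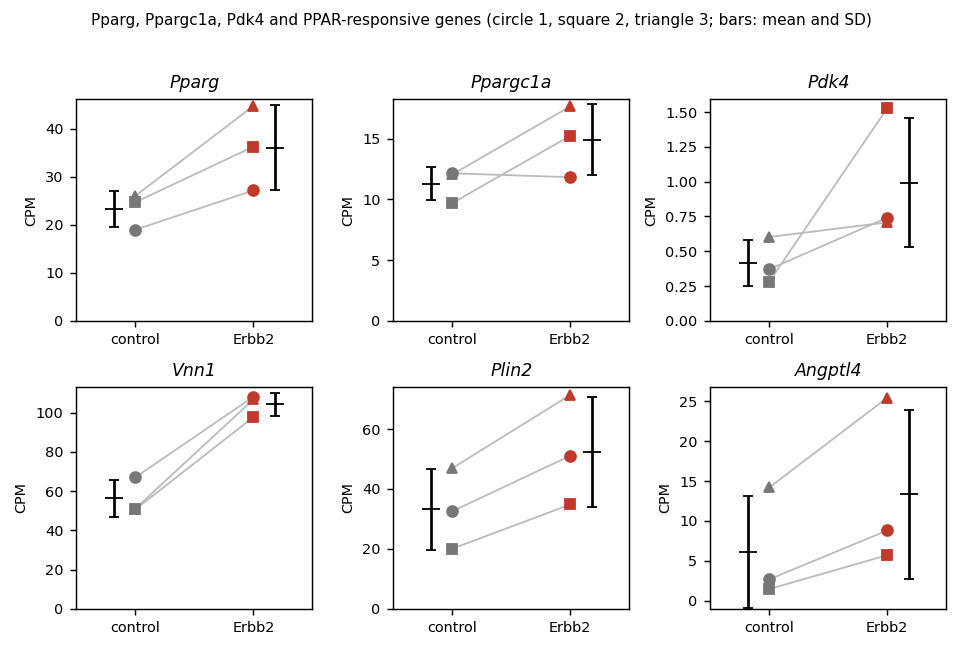
CPM on the vertical axis for Pparg, Ppargc1a, Pdk4 and the PPAR-responsive genes Vnn1, Plin2 and Angptl4 in each library; grey is control, red is Erbb2-overexpressing, lines join libraries of one replicate number, and bars give the mean and SD of 3 libraries. The Pparg, Pdk4 and Vnn1 groups do not overlap, while Plin2 and Angptl4 overlap between groups but go up along each of the 3 lines.

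Several genes that PPARs are known to induce were examined next, from a list of 21 outside the group. Of these, 10 had enough reads to be tested, 3 rose and 0 fell with the block, against 2.37% and 0.723% of all tested genes. Without the block edgeR called 0 of the 10 and DESeq2 called 1, Vnn1. The median log2 fold change of the 10 was 0.13 with the block, against -0.007 over all genes tested. This list was chosen with earlier results of these data known, so its counts are only a description. Vnn1, the enzyme pantetheinase, stood at 67.0, 50.6 and 51.0 CPM in control replicates 1, 2 and 3 and at 108, 97.7 and 107 CPM in the overexpressing ones. The groups did not overlap, and Vnn1 rose 1.86-fold (log2 0.90, SE 0.09, adjusted p = 0.000517 in edgeR with the block, at most 0.00654 over its alternatives). Plin2 encodes perilipin 2, a coat protein of lipid droplets. It was at 32.5, 20.1 and 46.9 CPM in controls and at 51.1, 34.8 and 71.4 CPM in overexpressing organoids. The groups overlapped, but each pair went up, and the fold was 1.60 (adjusted p = 0.00325, at most 0.0257). Angptl4, a secreted inhibitor of lipoprotein lipase, was at 2.69, 1.46 and 14.2 CPM in controls and at 8.81, 5.72 and 25.4 CPM in overexpressing organoids. It too overlapped, with both libraries of replicate 3 high, and rose 2.36-fold (log2 1.24, adjusted p = 0.00970, at most 0.0429). With the block the log2 fold change lay between 1.12 and 1.81, the latter without replicate 3. Without the block it was 2.68 without control replicate 3 and 0.22 without Erbb2 replicate 3, so its size rests on these libraries. Hilpda, a lipid droplet protein that hypoxia also induces, differed by 0.53 on the log2 scale (SE 0.19, adjusted p = 0.173, 0.126 to 0.542).

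Among the other genes of that list, those tested were not called. With the block the log2 fold change was -0.008 for Ucp2, 0.11 for Txnip, 0.11 for Pnpla2 and 0.15 for Slc27a1. Slc27a4 stood at -0.04 and Acot1 at -0.24. The rest were too scarce to test. Fabp1, Cyp4a10 and Cyp4a14, typical of liver, had 0 counts in each library, and Fabp4 and Cd36 had reads in 1 control library each and in no overexpressing one. Fgf21, Creb3l3 and Ucp3 had 0 counts in each control and reached 0.458, 0.349 and 0.375 CPM at most in overexpressing libraries. The 11 untested genes of the list reached at most 0.583 CPM in any library, that of Cidec. Of 16 partners and coregulators of PPARs, 15 were tested and 0 were called. Rxra, the usual dimer partner of PPARs, differed by -0.16 on the log2 scale (adjusted p = 0.412 in edgeR with the block). Of 10 genes that control the entry of pyruvate, a competing fuel, 0 were called; Pdk3, a pyruvate dehydrogenase kinase, differed by -0.27 on the log2 scale (adjusted p = 0.290 in edgeR with the block) and Pdp1, the opposing phosphatase, one of 0.30 (adjusted p = 0.402 in edgeR with the block).

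The PPAR site is a pair of half-sites, AGGTCA, 1 base of any kind, and AGGTCA again. Promoter windows of RefSeq (GRCm38.p6, 250 bases before to 50 after each start) were searched for it on both strands with up to 2 mismatches in the half-sites. Windows were present for 33 of the 36 genes; Acaa2, Decr1 and Hsd17b4 had none. A match was found in 4 of the 33, or 12.1%, against 4.40% of 27025 genes with a window. With at most 1 mismatch 0 of the 33 matched, against 0.644% of all. The matches that lie before the start are shown with the half-site pair in capitals on the strand of the gene, next to that of Plin2. Acox2, which is called below, has a match past its start, and Vnn1 and Angptl4 had no window. Hilpda was also looked up and gave no match. The remaining genes outside the group were not looked up singly.
Cat, chr2:103485337-103485365, minus strand: actctcagAGGTCAGAGAACAccagcagg
Echs1, chr7:140116484-140116512, minus strand: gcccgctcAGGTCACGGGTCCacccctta
Etfa, chr9:55512300-55512328, minus strand: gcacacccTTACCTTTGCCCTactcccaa
Plin2, chr4:86670264-86670292, minus strand: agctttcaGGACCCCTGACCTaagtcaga
In Etfa and Plin2 the repeat reads on the opposite strand, so the capitals show its reverse complement. The fourth match, in Slc25a20, lies past the start. Log2 fold changes of the 4 genes were 0.19 for Cat, 0.12 for Echs1, -0.13 for Etfa and -0.12 for Slc25a20, each uncalled. The 3 windows of Pparg held no match. As a sequence feature that the choice of genes did not use, the 39 windows of the group held a median of 17 CG pairs and 61.3% G and C, against 7 and 52.7% over all windows. All windows include those of genes too scarce to test here, while 35 of the 36 genes of the group were tested. Neither these medians nor the shares with a match were taken over tested genes alone.

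The first steps, activation and the carnitine shuttle, held 6 genes, and 0 were called. Cpt1a, the outer membrane transferase that sets the pace of entry into mitochondria, was at 78.2, 82.2 and 64.4 CPM in control replicates 1, 2 and 3 and at 84.6, 97.4 and 71.7 CPM in the overexpressing ones. Each pair went up slightly while the groups overlapped, and the log2 fold change was 0.17 (SE 0.08, adjusted p = 0.313 in edgeR with the block, 0.270 to 0.773 over its alternatives). Among the acyl-CoA synthetases, Acsl5 was at 276, 246 and 348 CPM in controls and at 303, 280 and 380 CPM in overexpressing organoids. It likewise went up in 3 of 3 pairs without a call (log2 fold change 0.15, SE 0.07). Acsl1, another synthetase, differed far more by replicate number than between control and overexpressing organoids. Its controls were at 68.7, 79.4 and 33.6 CPM and its overexpressing libraries at 64.9, 64.1 and 33.1 CPM, so that both libraries of replicate 3 were low. Acsl3, a synthetase of lipid droplets and the endoplasmic reticulum, had a log2 fold change of 0.06. The carnitine carrier Slc25a20 had one of -0.12 and the inner transferase Cpt2 one of 0.05.

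Of the 9 enzymes of the mitochondrial spiral 0 were called, and a difference of the 9 as a set was not tested. The median log2 fold change was -0.14 with the block against -0.007 over all genes tested. Within pairs 1, 2 and 3 the median difference was -0.151, -0.128 and -0.117, against -0.006, 0.003 and -0.002 over all genes tested. The SD of the library medians within groups was 0.174. This SD, like those of single genes, includes the spread by replicate number, which the block removes. Of the 9 genes 7 had a log2 fold change below 0 and 2, Acads and Echs1, above it; 6 were lower in 3 of 3 pairs, which holds for 19.2% of all genes tested. In 0 of the 9 did the groups part, and in 9 of 9 the difference was smaller than the larger of the SDs within groups, as it was for 80.7% of all genes tested. Hadh, the short-chain hydroxyacyl-CoA dehydrogenase, was at 76.9, 122 and 70.3 CPM in control replicates 1, 2 and 3 and at 69.3, 91.0 and 63.8 CPM in the overexpressing ones. Replicate 2 was high in both groups, and the log2 fold change was -0.24 (SE 0.09, adjusted p = 0.187 in edgeR with the block, 0.0466 to 0.802 over its alternatives). Without replicate 3 it was called as lower, at -0.28; this was the one setting with such a call in the group. Without control replicate 2, and without the block, the value was 0.02.

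The chain-length specific acyl-CoA dehydrogenases, which open each turn of the spiral, were not called either. Acadm, for medium chains, was at 104, 119 and 80.1 CPM in controls and at 85.3, 99.1 and 77.9 CPM in overexpressing organoids. Its log2 fold change was -0.20 (SE 0.08, adjusted p = 0.259, 0.0533 to 0.770 over its alternatives), and its groups overlapped. Acadl, for long chains, was at 393, 415 and 321 CPM in controls and at 327, 380 and 302 CPM in overexpressing organoids, with a log2 fold change of -0.16 (SE 0.08). By the mean of either group it is the most abundant gene of the whole group. In both libraries of replicate 3, though, Acsl5 stood above it, at 348 CPM in the control and 380 CPM in the overexpressing one. Acadvl, for very long chains, was at 76.7, 95.3 and 74.6 CPM in controls and at 70.5, 84.6 and 68.7 CPM in overexpressing organoids, with a log2 fold change of -0.14. Acads, for short chains, was at 0.02 and the hydratase Echs1 at 0.12, the exceptions among the 9. The thiolase Acaa2 stood at -0.11.

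Hadha and Hadhb encode the alpha and beta subunits of the trifunctional protein, which carries out the later steps for long chains. The genes lie head to head on chromosome 5, Hadha on the minus and Hadhb on the plus strand, with 272 bases between their RefSeq starts. That stretch is shown on the plus strand with CG pairs in capitals, because it is the start region of both subunits.
Hadha to Hadhb, chr5:30154981-30155252 (GRCm38.p6): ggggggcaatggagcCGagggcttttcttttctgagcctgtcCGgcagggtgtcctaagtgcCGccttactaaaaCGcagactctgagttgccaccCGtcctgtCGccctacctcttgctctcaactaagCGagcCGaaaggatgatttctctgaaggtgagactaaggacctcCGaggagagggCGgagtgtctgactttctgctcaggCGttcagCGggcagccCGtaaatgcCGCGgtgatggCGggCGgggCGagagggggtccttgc
It holds 18 CG pairs and 60.3% G and C. Hadha was at 118, 148 and 127 CPM in control replicates 1, 2 and 3 and at 118, 136 and 113 CPM in the overexpressing ones. Hadhb was at 35.4, 43.7 and 35.7 CPM in controls and at 29.7, 39.0 and 32.7 CPM in overexpressing organoids. Both were highest in replicate 2 of each group and neither parted the groups, with log2 fold changes of -0.10 (SE 0.08) and -0.18 (SE 0.10). Per length Hadha stood at 32.7 ± 3.90 and Hadhb at 18.7 ± 2.30 RPKM in controls (SD, n = 3).

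Of the 6 enzymes that handle double bonds and pass electrons on, 0 were called. Their log2 fold changes ran from -0.18 for Etfdh to -0.03 for Eci2, and 3 were lower in 3 of 3 pairs. The median was -0.09 with the block, and within pairs 1, 2 and 3 it was -0.075, -0.151 and -0.08. The SD of the library medians within groups was 0.113. For 6 of 6 the difference was smaller than the larger of the SDs within groups. These SDs include the spread by replicate number, which the block removes, and the 6 as a set were not tested. Etfdh, which hands electrons from these dehydrogenases to ubiquinone, was at 77.6, 104 and 63.4 CPM in controls and at 65.2, 87.3 and 62.7 CPM in overexpressing organoids. Replicate 2 was again high in both groups, and without control replicate 2 and without the block its value was 0.02. Etfa and Etfb, the subunits of the electron carrier that supplies it, had values of -0.13 and -0.09. The isomerase Eci1 stood at -0.09 and the dienoyl-CoA reductase Decr1 at -0.07.

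**Figure D3:**
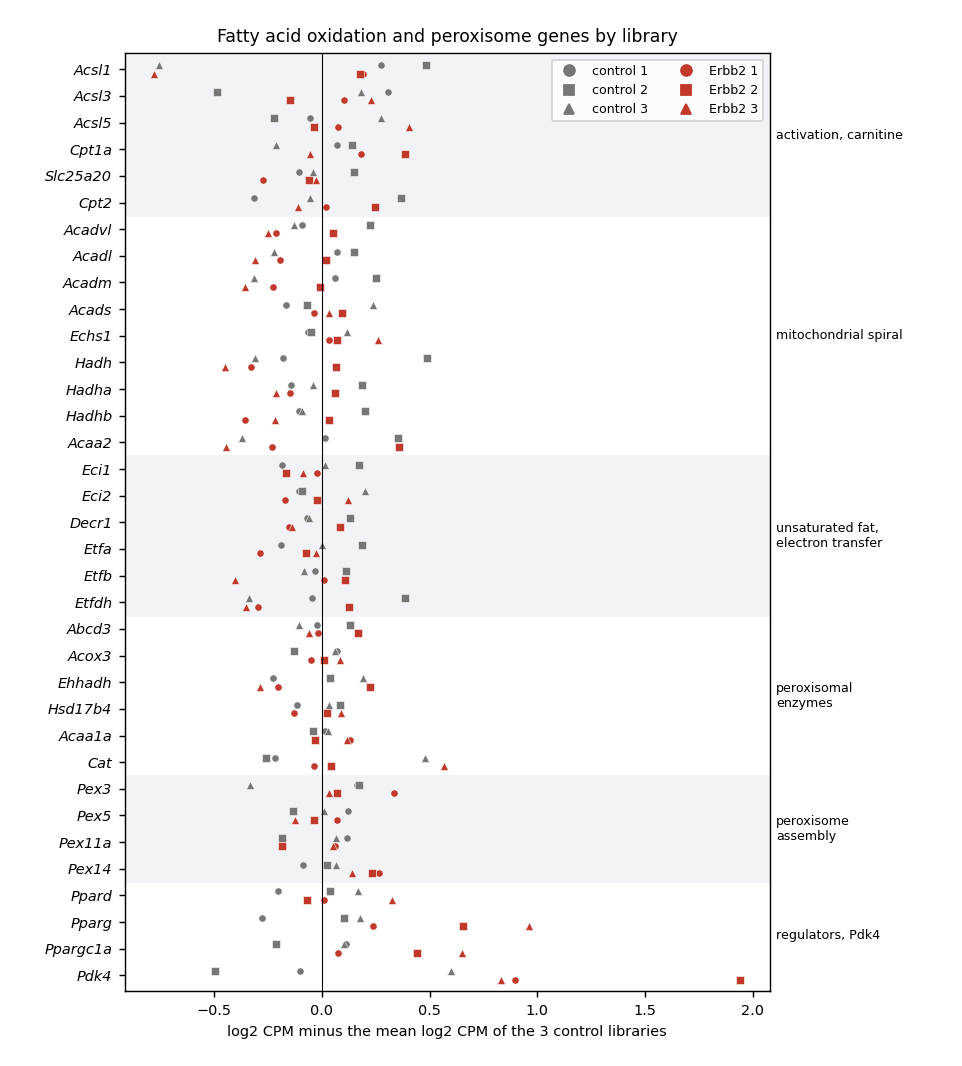
Log2 CPM of each tested gene in each library minus the mean log2 CPM of its 3 control libraries (horizontal axis), by role; grey is control, red is Erbb2-overexpressing, and circle, square and triangle are replicates 1, 2 and 3. Symbols of one replicate number sit close together for most genes, as for Acsl1, whose triangles lie far to the left in both groups, while the red symbols of Pparg all lie right of the grey ones.

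No peroxisomal gene of the group was called. For the 6 enzymes and transporters the groups overlapped, with a median log2 fold change of 0.02. Cat, the catalase that removes hydrogen peroxide, was at 58.9, 57.2 and 95.3 CPM in control replicates 1, 2 and 3 and at 66.8, 70.5 and 101 CPM in the overexpressing ones. Each pair went up, both libraries of replicate 3 were high, and the log2 fold change was 0.19 (SE 0.08, adjusted p = 0.286 in edgeR with the block, 0.128 to 0.770 over its alternatives). Abcd3, a transporter of fatty acids into peroxisomes, was at 218, 242 and 205 CPM in controls and at 218, 248 and 212 CPM in overexpressing organoids, a log2 fold change of 0.03. Hsd17b4, the bifunctional protein for branched and very long chains, was at 176, 202 and 196 CPM in controls and at 175, 194 and 203 CPM in overexpressing organoids. These differ by less than the spread within either group. Ehhadh, a second bifunctional protein and a strong PPAR-alpha target in liver, was low, at 7.37, 8.84 and 9.85 CPM in controls and at 7.50, 10.1 and 7.08 CPM in overexpressing organoids. The oxidase Acox3 had a log2 fold change of 0.01 and the thiolase Acaa1a one of 0.07; Acaa1a has a close paralog with which reads can be shared.

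Of the 4 peroxisome assembly genes 0 were called. Pex14, part of the docking complex of the import machinery, was at 24.1, 26.0 and 26.8 CPM in controls and at 30.8, 30.1 and 28.2 CPM in overexpressing organoids. Its groups did not overlap, and its log2 fold change was 0.21 (SE 0.11, adjusted p = 0.360, 0.173 to 0.773 over its alternatives). Of the 35 genes 3 had groups that did not overlap, Pparg, Pdk4 and Pex14, each with the overexpressing libraries above, against 4.27% of all genes tested that lay above without overlap; 0 of the 35 lay below, against 4.48%, and 8.75% did not overlap in either direction. The import receptor Pex5 was at -0.04, Pex11a, which promotes division of peroxisomes, at -0.03, and Pex3, which anchors new membrane proteins, at 0.15. Of 16 other assembly and division genes 15 were tested and 0 were called. The lowest adjusted p there was that of Pex7, an import receptor, with a log2 fold change of -0.21 (adjusted p = 0.381 in edgeR with the block), and Pex19 had one of -0.14.

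Among 28 other peroxisomal enzymes and carriers, 26 were tested. With the block 1 rose and 1 fell, against 2.37% and 0.723% of all tested genes. Acox2, the oxidase for bile acid intermediates and branched chains, was at 17.0, 14.4 and 25.2 CPM in control replicates 1, 2 and 3 and at 24.8, 20.7 and 44.9 CPM in the overexpressing ones. The groups overlapped through control replicate 3, each pair went up, and the fold was 1.57 (log2 0.65, SE 0.12, adjusted p = 0.0115 in edgeR with the block, 0.00276 to 0.0396 over its alternatives). Nudt19, a hydrolase of coenzyme A, was at 76.2, 82.0 and 59.8 CPM in controls and at 52.8, 57.6 and 51.1 CPM in overexpressing organoids. Its groups did not overlap, and it fell 1.34-fold (log2 -0.42, SE 0.09, adjusted p = 0.0279). It missed the threshold in 2 of its 10 fits with the block, those without replicate 1 and without replicate 2, where the adjusted p reached 0.286. Of 27 other genes of mitochondrial fatty acid oxidation and ketone metabolism 26 were tested and 0 were called. Acsf2, an acyl-CoA synthetase, and Acadsb, a dehydrogenase of short branched chains, came closest, with log2 fold changes of 0.40 and -0.40 (adjusted p = 0.0507 and 0.0526 in edgeR with the block). Over the alternatives with the block these p-values ran from 0.0399 to 0.244 for Acsf2 and from 1.26e-05 to 0.431 for Acadsb.

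Differences between replicate numbers were larger than those between conditions, control and overexpressing, for most genes of the group. The replicate number took a median of 73.3% of the spread of log2 CPM over the 6 libraries and the condition 12.4%, against 64.6% and 10.4% over all genes tested. In 30 of 35 genes, or 85.7%, the number took more than the condition, as in 82.1% of all genes tested. The ones where the condition took more were Pparg, Ppargc1a, Pdk4, Pex14 and Eci1. The highest control stood above the lowest by 2.36-fold for Acsl1, 1.74-fold for Hadh and for Acsl3, and 1.67-fold for Cat. In 31 of the 35 genes this range within controls was wider than the ratio between the group means. The range includes the spread by replicate number, and no share over all genes tested stands beside this count. Of the 35 genes 9 were higher in overexpressing organoids in 3 of 3 pairs and 11 lower, against 19.6% and 19.2% of all genes tested. Control replicate 2 was the highest of the controls in 19 of the 35, and control replicate 3 in 11.

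Levels per length spanned a wide range within controls. Acadl was the most abundant, at 196 ± 25.7 RPKM, and its range stood clear of the next gene, Hsd17b4, at 71.2 ± 5.05 RPKM (SD, n = 3). Acsl5 and Abcd3 followed at 68.4 ± 12.3 and 63.6 ± 5.35 RPKM, with ranges that overlapped. At the low end Ehhadh stood at 2.91 ± 0.419, Ppargc1a at 1.75 ± 0.215 and Pdk4 at 0.120 ± 0.0475 RPKM. Of the 35 neighbouring pairs in this order, 28 overlapped in their control libraries. The lengths are those of principal transcripts in an earlier annotation, so that a gene expressed mainly from a shorter or longer transcript would be placed too low or too high.

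**Figure D4:**
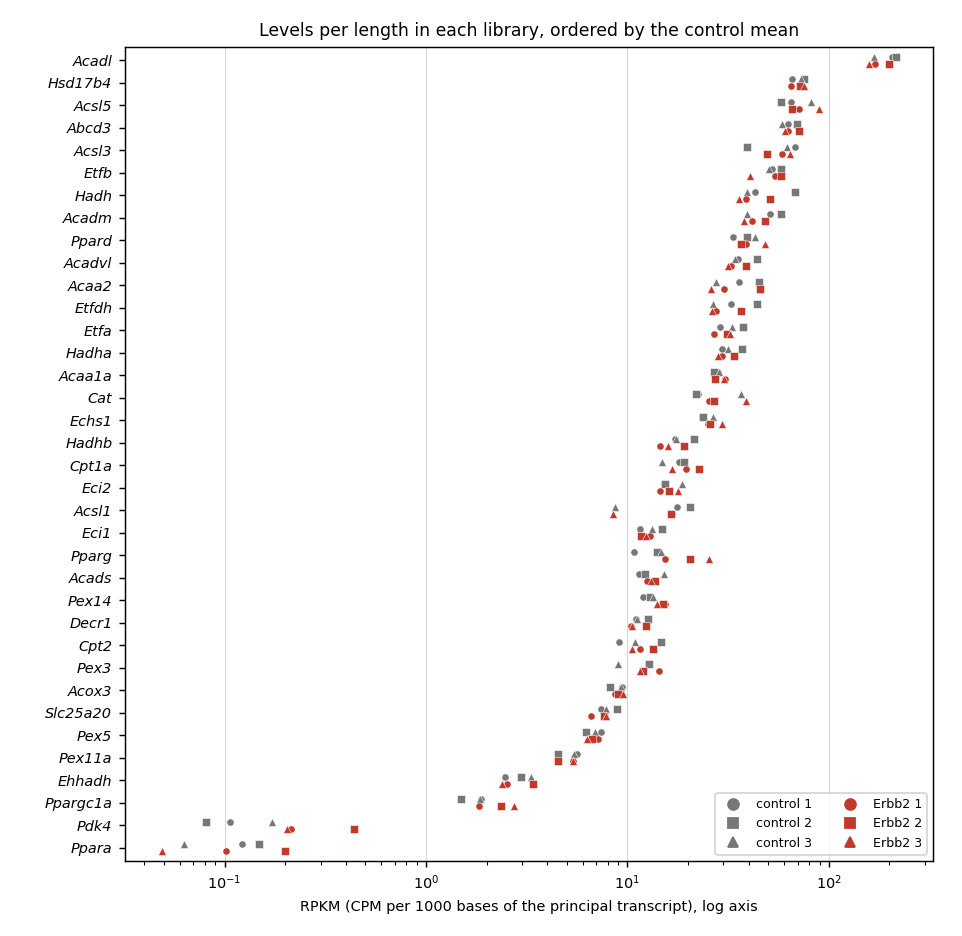
Level per length in RPKM (horizontal log axis) of all 36 genes in each library, ordered by the control mean; grey is control, red is Erbb2-overexpressing, and circle, square and triangle are replicates 1, 2 and 3. Acadl stands alone at the top, the control means of Hsd17b4 down to Pex11a lie between 71.2 and 5.19 RPKM, and Pdk4 and Ppara lie well below the rest.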

How the data were processed

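Counts were read from 1 table per library, as deposited by the authors: raw read counts per Ensembl gene, in whole numbers. The submitters' processing notes name STAR, featureCounts and GRCm39. Versions, annotation and strandedness are not given in the sources used, so antisense reads cannot be told apart. Symbols were matched by Ensembl ID for 25424 of 25528 genes. Libraries of a group differed beyond sampling noise, with chi-square values of 34.8 to 131 per degree of freedom.

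Genes were kept by filterByExpr (minimum count 10), which left 12593, scaled by TMM and tested in edgeR 4.0.16 (R 4.3.3) by its quasi-likelihood F test (two-sided, robust). Standard errors are the log2 fold change over the root of F. The main design had the group alone; the replicate block was also fitted. Deviations from group means correlated between libraries of the same number at 0.333, 0.660 and 0.707. Between libraries of unlike number the values ran from -0.657 to 0.128. Taking deviations from group means ties these values to each other, so they are not separate checks. The numbers were taken to pair the libraries on this basis, from the same data as the calls. The labels give only the numbers. DESeq2 1.42.0 and limma 3.58.1 voom were further alternatives. The method was tested on simulated data. The changed genes in it had larger folds than most genes of this group and were more abundant than Pdk4, so it does not cover such cases. Differences within pairs used log2 CPM with a prior count of 2. RPKM used the longest principal transcript of GENCODE M21 (GRCm38). Promoter sequences are from RefSeq (GRCm38.p6).

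The genes and lists were chosen with earlier results of these data known. Values per library are given for called genes, the 12 smallest p-values with the block, the regulators with Pdk4, and Cpt1a, Acadm, Hadha, Etfdh, Ehhadh, Cat, Pex14 and Abcd3; from each further list, called genes up to 4 and at least the 2 with the smallest p. For 1 gene this result is not reported here. Further genes are given by their log2 fold change, and Acsl1, Acadvl, Hsd17b4, the markers, Erbb2, Hilpda and the untested PPAR-responsive genes were given values outside this rule or after these were seen.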

Additional observations from a re-analysis of the deposited data

How the results depend on the processing

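Scaling (RLE, upper quartile), test (DESeq2, limma voom), low-count filter, the replicate block and leaving out libraries were varied; 2 alternatives, the block with upper-quartile scaling and the block without a low-count filter, were chosen after seeing the data. Over all genes, edgeR without the block called 0, and DESeq2 without it 28 higher and 6 lower, with 1 gene of the further lists higher. The replicate block gave 298 higher and 91 lower, with 1 of the group higher and 4 higher and 1 lower in the further lists. With the block and RLE scaling these were 312, 83, 1, 5 and 1; with DESeq2 370, 96, 1, 4 and 2; with limma voom 311, 106, 1, 5 and 2. With the block and at least 1 CPM in 3 libraries they were 306, 82, 1, 5 and 1; with upper-quartile scaling 288, 93, 1, 4 and 2; without a filter 272, 73, 1, 4 and 1. The cause was not tested.

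Leaving out 1 library without the block gave 0 to 1 genes higher. With the block, leaving out pair 1 (without replicate 1) called 173 genes higher and 40 lower, pair 2 gave 122 higher and 24 lower, and pair 3 gave 769 higher and 320 lower. In each of these 1 gene of the group, Pparg, was higher, and Hadh was the 1 lower without replicate 3; the further lists had 4, 4 and 11 higher, and 5 lower without replicate 3. With the block the log2 fold change turned sign without replicate 1 for Cpt2 (-0.08713) and Acads (-0.02611). Without replicate 2 it did so for Acsl3 (-0.066), Acads (-0.02728), Eci1 (0.04157), Acox3 (-0.03495) and Hsd17b4 (0.03345), and without replicate 3 for Eci2 (0.007014), Etfb (0.02379), Ehhadh (0.1135) and Pex5 (0.02267). Hsd17b4 also turned sign with RLE scaling (0.0009413), DESeq2 (0.0009837) and, with the block, RLE (0.0004153) and DESeq2 (0.0003139). Without the block, log2 fold changes that turned sign when 1 library was left out ran from -0.04386 to 0.09658 for Abcd3, -0.3645 to 0.09638 for Acaa2, -0.06277 to 0.1535 for Acads, -0.04992 to 0.04661 for Acox3, -0.4532 to 0.09234 for Acsl1, -0.1766 to 0.1838 for Acsl3, -0.03878 to 0.4597 for Cat, -0.1126 to 0.2361 for Cpt2, -0.1044 to 0.08458 for Eci2, -0.2551 to 0.01843 for Ehhadh, -0.186 to 0.05684 for Etfb, -0.3557 to 0.02456 for Etfdh, -0.4323 to 0.01961 for Hadh, -0.06235 to 0.05345 for Hsd17b4, -0.1102 to 0.04607 for Pex11a, -0.01148 to 0.2173 for Pex3, -0.09737 to 0.0282 for Pex5 and -0.03818 to 0.1826 for Ppard. Where 2 libraries remained in a group, the spread was pooled over both groups. Counts of 5 to 27 per library limit Pdk4.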
